A study of Mus musculus with 30 samples.

Results

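The comparison described here is that of vehicle-treated MC38 tumours taken 7 days after injection with those taken 4 days after it: 5 libraries at day 7 and 5 at day 4, 10 of the 30 libraries of the series, chosen by their labelled treatment and day. MC38 is a mouse colon carcinoma line; cells were placed under the skin of the right flank of female C57BL/6J mice aged 10 weeks, and mice were dosed once tumours measured 200 to 300 mm3. All 10 mice received a single intravenous injection of vehicle, so they carried tumours and an injection but no drug. The other groups, used only where named, received 0.39 mg/kg of mXTX301, the mouse surrogate of an interleukin-12 with a mask, or 0.03 mg/kg of an unmasked positive control, with 5 mice per group and day. Each library came from the polyadenylated RNA of 1 whole tumour, and tumour size at collection is not given in the sources used here.

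A transplanted tumour changes as it grows. Cells far from vessels meet low oxygen and switch on hypoxia and glycolysis genes, host fibroblasts and vessels grow in, and macrophages, natural killer (NK) cells and T cells enter or leave. A piece cut from a flank tumour can also hold overlying epidermis, underlying muscle, fat or nerve. In whole-tumour RNA, fewer cells of a type and less RNA per cell cannot be told apart.

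Total counts in the vehicle libraries ranged from 50233941 to 82816498, and 15482 genes passed the low-count filter. The labelled tissue was checked against colon epithelial markers, of which Epcam and Cdh1 are given here. Epcam, an epithelial adhesion gene, lay between 0 and 3.33 CPM (counts per 1000000 counts of the library), and its highest value fell in the tumour richest in skin genes. Cdh1, which encodes E-cadherin, was present at 1.56 to 10.7 CPM. A list of epithelial markers, with 10 of 15 members tested, had a mean log2 CPM of -1.72 at day 4 and -1.23 at day 7. Skin genes set 4 tumours apart, with a mean log2 CPM of 21 tested epidermal genes more than 2 above the median of the 10: day 4 replicate 4 (by 4.68), day 7 replicate 2 (3.18), day 7 replicate 3 (2.36) and day 7 replicate 5 (7.41). Day 4 replicate 5 stood apart in another way, with 8.49% of its counts in ribosomal protein genes against 5.64% to 6.58% in the other 9 tumours. Counts of called genes and gene list levels are given below with and without these libraries.

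Between day 4 and day 7, 6 genes changed (edgeR quasi-likelihood test, adjusted p = 0.0491 for each, 0.0388% of the 15482 tested), 3 higher and 3 lower (0.0194% in each direction), and every change was under 1.5-fold. The higher genes were Arhgap5, which encodes a GTPase-activating protein, Dctn1, which encodes the largest subunit of the dynactin motor complex, and Dcaf5, a substrate receptor gene of CUL4 ubiquitin ligases. The lower genes were Polr2g, which encodes a subunit of RNA polymerase II, Slx1b, a structure-specific nuclease gene, and Slc29a1, which encodes the nucleoside transporter ENT1. In all 6 the day groups did not overlap, as in 316 genes (2.04%) of those tested, day 7 lying above in 0.949% and below in 1.09%.

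Arhgap5 (gene 11855; GRCm38.p6 chromosome 12, 52503763 to 52571978) stood at 53.6, 57.8, 49.97, 53.7 and 51.8 CPM in day 4 replicates 1 to 5 and at 80.1, 80.2, 72.7, 85.6 and 58.5 CPM in day 7 replicates 1 to 5. The lowest day 7 tumour was replicate 5, the one richest in skin genes, and it lay just above the highest day 4 tumour. The fitted change was 1.41-fold (log2 0.50, SE 0.096). Dctn1 (gene 13191; chromosome 6, 83165909 to 83200118) stood at 183, 191, 169, 169 and 177 CPM at day 4 and at 227, 230, 197, 213 and 198 CPM at day 7, a 1.197-fold change. Dcaf5 (gene 320808; chromosome 12, 80335848 to 80436601) rose 1.18-fold, from 45.5 ± 2.27 to 53.9 ± 3.48 CPM (SD, n = 5). For Dctn1 the gap was narrow, the lowest day 7 tumours, replicates 3 and 5, lying just above day 4 replicate 2.

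Slc29a1 (gene 63959; chromosome 17, 45585200 to 45599618) stood at 140, 136, 143, 153 and 144 CPM in day 4 replicates 1 to 5 and at 104, 112, 120, 119 and 121 CPM at day 7. Every day 7 tumour lay below every day 4 tumour, and the gene fell by 0.31 on the log2 scale (SE 0.061). Polr2g (gene 67710; chromosome 19, 8793129 to 8798557) fell by 0.34, from 90.1 ± 5.40 to 71.2 ± 7.10 CPM, and Slx1b (gene 75764; chromosome 7, 126688927 to 126695783) by 0.32, from 17.7 ± 0.882 to 14.2 ± 1.12 CPM (SD, n = 5). Slx1b overlaps Sult1a1 in the annotation, Dctn1 overlaps Gm15624 and Dcaf5 overlaps Mir1843a and Scarna3b, and without stated strand the reads of such partners cannot be told apart.

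The count of 6 rests on where the threshold stands, and it is not a count of all that differed. Of all genes tested, 2932 (18.9%) had an unadjusted p under 0.05, 1484 higher and 1448 lower. At an adjusted p under 0.06 there were 114 genes (0.736%), and under 0.10 there were 566 (3.66%), 298 higher (1.92%) and 268 lower (1.73%). Just outside the threshold, at an adjusted p of 0.05003, stood Stat3, which encodes a cytokine-activated transcription factor (168 ± 10.1 CPM at day 4, 222 ± 27.7 at day 7), the Myc neighbour transcript Pvt1 (18.1 ± 1.38 and 12.01 ± 3.43) and the class I gene H2-K2 (26.4 ± 4.00 and 17.4 ± 4.64; SD, n = 5). DESeq2 called 604 genes (3.9%), 308 higher (1.99%) and 296 lower (1.91%), with a median absolute log2 change of 0.32 and 32 genes of at least 2-fold. Fitted to the 10 vehicle libraries alone, edgeR called 0 genes, with a smallest adjusted p of 0.435 and 1580 genes at an unadjusted p under 0.05.

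Single tumours decided the count. Without day 7 replicate 5, the tumour richest in skin genes, 1075 genes were called (6.89%), 536 higher (3.44%) and 539 lower (3.45%). All 1075 had the same direction in the fit with every library. That was close to fixed in advance, since both fits share every other library. Of the 1075 genes, 547 were also called by DESeq2. Without day 4 replicate 5, 452 were called (2.89%), without day 7 replicate 3, 270 (1.73%), without day 4 replicate 4, 159 (1.02%), and without day 4 replicate 2, 92 (0.589%). With day 4 replicate 1 or 3 or day 7 replicate 1, 2 or 4 left out, 1 at a time, edgeR called 0 genes, with 2681, 2258, 2057, 2223 and 2473 genes at an unadjusted p under 0.05. Arhgap5, Dctn1, Dcaf5, Polr2g, Slx1b and Slc29a1 were each called in 12 of the 20 alternative fits.

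Most genes could be bounded. The 95% interval of the day 7 to day 4 ratio lay within 2-fold either way for 11898 genes (76.9%) and within 1.5-fold for 9664 (62.4%). These intervals, here and below, use a spread estimated from all 30 libraries. The median log2 SD was 0.23 and 0.20 in the vehicle groups and 0.15 to 0.16 in the treated ones. Intervals from the vehicle tumours alone may therefore be wider. A fitted change of at least 2-fold was reached by 650 genes (4.2%), 458 higher (2.96%) and 192 lower (1.24%), and none of the 6 called genes was among them.

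Of the 36 panel genes, 20 had intervals within 2-fold and 0 were called. The proliferation gene Mki67 had a log2 change of 0.20 (interval -0.05 to 0.46), and Top2a, a topoisomerase of dividing cells, one of 0.13 (-0.03 to 0.28). Myc stood at 251, 214, 294, 253 and 209 CPM at day 4 and at 140, 154, 248, 224 and 273 CPM at day 7. The 2 lowest tumours were of day 7, but the highest day 7 value exceeded 4 of the day 4 values; the log2 change was -0.23 (interval -0.50 to 0.04). Vegfa, the vessel growth factor gene, had -0.30 (-0.54 to -0.06; adjusted p = 0.172), the glucose transporter gene Slc2a1 -0.18 (-0.53 to 0.17) and the collagen gene Col1a1 0.01 (-0.74 to 0.76).

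Intervals of the immune genes of the panel ranged widely, from -0.31 to 0.0019 for the class I gene H2-K1 and from -0.47 to 0.43 for the macrophage gene Cd68 to spans of over 2 log2 units. Cd3e, a T-cell receptor complex gene, lay between 0.218 and 0.830 CPM in all 10 tumours, with an interval from -1.01 to 0.73 on the log2 scale. Ifng lay between 0.0348 and 0.569 CPM (interval -1.08 to 1.16). Cd8a had a fitted log2 change of -0.75 (-1.84 to 0.35), Foxp3, the regulatory T-cell factor gene, -0.74 (-1.61 to 0.13) and the killing gene Prf1 0.88 (-0.17 to 1.94). The neutrophil gene S100a8 had 1.43 (0.20 to 2.66; adjusted p = 0.196), and its day 7 replicate 5 value of 5.25 CPM stood against 0.244 to 1.06 CPM in the other 9 tumours. That tumour was also the richest in skin genes. The list of neutrophil genes and CXCR2 ligands did not follow S100a8, with a median log2 change of -0.09 and 8 of 16 tested members positive.

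**Figure D1:**
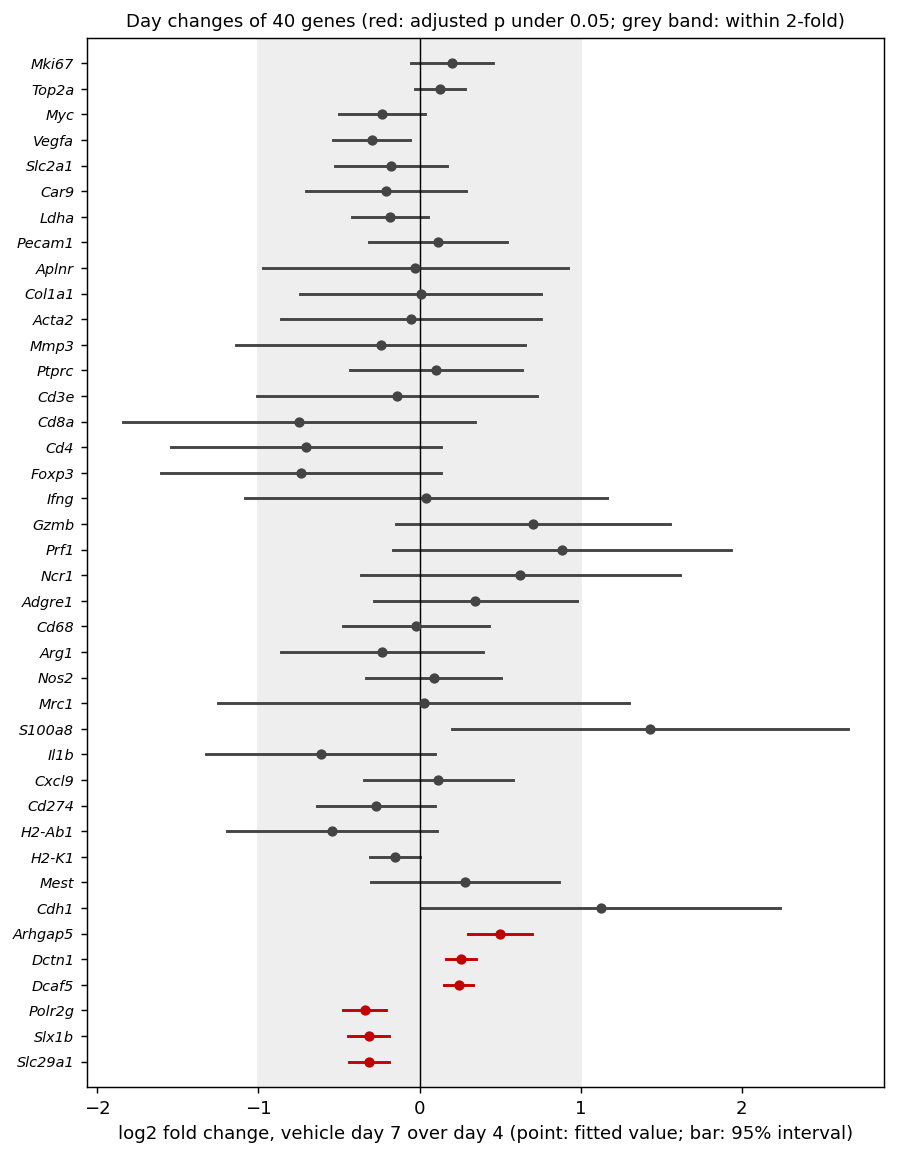
Fitted log2 fold change of vehicle day 7 over day 4 (x axis) with its 95% interval (bars) for 34 panel genes and the 6 called genes; Krt14 and Epcam, which followed skin, are left out. The 6 called genes, in red, have narrow intervals away from 0, while T-cell and NK-cell genes such as Cd8a, Foxp3 and Prf1 have wide intervals across 0.

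In 52 gene lists, holding 801 tested genes, 0 members were called, against 0.0388% of all genes, and in 0 lists did the levels of the day groups not overlap. The list level in a tumour is the mean log2 CPM of its tested members. The median fitted log2 change over all 15482 genes was 0.0028, and each list's median is read beside it. The share of all genes with an unadjusted p under 0.05 was 9.59% higher and 9.35% lower.

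Stress and early response genes had medians below that of all genes. Immediate early genes, the transcription factors and phosphatases that cells induce within minutes of a stimulus, had a median of -0.37; 19 of 20 were negative and 9 had an unadjusted p under 0.05. Fos stood at 33.6, 10.1, 13.8, 14.2 and 46.2 CPM in day 4 replicates 1 to 5 and at 9.67, 12.3, 13.2, 9.35 and 11.8 CPM at day 7. Its day 7 values were close together and overlapped the middle of day 4, and the difference came from 2 high day 4 tumours, replicates 1 and 5. Klf6, a zinc finger factor gene, had -0.36 (adjusted p = 0.0736), Dusp1 -0.63, Atf3 -0.61 and Jun 0.10. Heat shock genes had a median of -0.24, with 10 of 13 negative; the mitochondrial chaperonin gene Hspe1 had -0.39 (adjusted p = 0.0974).

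Growth lists divided. All 28 ribosomal protein genes were negative, with a median of -0.20 and 15 at an unadjusted p under 0.05, and their level ran from 9.71 to 9.86 in day 4 replicates 1 to 4 and from 9.60 to 9.80 at day 7, with day 4 replicate 5 at 10.3. Their level differed by -0.19 between the days with all tumours and by -0.09 without that tumour. MYC targets and ribosome biogenesis genes had a median of -0.17, with 17 of 20 negative, and were lowest in day 7 replicates 1 and 2 (7.93 and 8.07, others 8.24 to 8.61). Cell cycle lists lay near all genes, S phase at 0.03 and G2 and mitosis at 0.08. Within the latter, Bub1b, a spindle checkpoint kinase gene, stood at 136, 153, 114, 146 and 126 CPM at day 4 and at 198, 200, 155, 169 and 143 CPM at day 7 (1.28-fold, adjusted p = 0.0619). Only day 7 replicate 5 lay below the highest day 4 tumour.

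Lipid synthesis had the opposite sign. In cholesterol biosynthesis 20 of 21 genes were positive, with a median of 0.17, and in fatty acid synthesis 13 of 14, with a median of 0.14. Acly, which makes cytosolic acetyl-CoA, had 0.25 (adjusted p = 0.0852), and the sterol pathway gene Hmgcs1 0.27 (adjusted p = 0.290). Glycolysis and hypoxia response had medians of -0.11 each, 16 of 18 and 17 of 24 members being negative. Their levels were highest in day 4 replicate 5 (8.68 and 6.82) and lowest in day 7 replicate 2 (8.04 and 6.13). The level differences between the days were -0.09 and -0.09 with all tumours and 0.0022 and -0.0022 without day 4 replicate 5. For oxidative phosphorylation they were -0.08 and 0.01.

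Immune lists mostly had medians below 0 apart from killing genes. Medians were -0.34 for T cell-attracting chemokines, -0.30 for regulatory T cells, -0.32 for acute inflammatory cytokines, -0.19 for T cells, -0.19 for MHC class II presentation, -0.17 for the type I interferon response, -0.12 for MHC class I presentation and -0.08 for the interferon-gamma response. Irf1, an interferon-gamma-induced transcription factor gene, stood at 337, 317, 324, 377 and 310 CPM at day 4 and at 279, 246, 282, 284 and 296 CPM at day 7. The groups did not overlap, and the log2 change was -0.26 (adjusted p = 0.0637). Cytotoxic effectors had a median of 0.53 and NK cells of 0.36, and their spread between tumours is described with the granzymes. Macrophages had -0.0062 and monocytes -0.15.

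No tissue list had a called member. Skin epithelium had a median of 2.81, skeletal muscle -0.77, adipocytes 0.09, fibroblasts and collagen -0.03 and endothelium 0.10. The level difference of skin epithelium was 1.58 with all tumours and -0.22 without the 4 skin-rich ones, and that of skeletal muscle -0.83 and -1.60. The muscle myosin gene Myh4 stood at 65.7, 18.9, 97.3, 13.2 and 12.9 CPM at day 4 and at 4.67, 2.03, 45.1, 0.828 and 13.9 CPM at day 7. Day 4 replicates 1 and 3 and day 7 replicate 3 were the 3 highest, and the interval ran from -4.64 to 1.35.

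List levels moved with the tumours that stood apart. Without day 4 replicate 5 the level difference between the days changed sign in 5 of the 52 lists and moved by over 1.5 times in 18 more. Without the 4 skin-rich tumours it changed sign in 12, the interferon-gamma response (-0.14 and 0.09) and endothelium (0.06 and -0.21) among them, and moved by over 1.5 times in 29 more. The difference of cytotoxic effectors was 0.61 with all tumours, 0.92 without day 4 replicate 5 and 1.03 without the skin-rich ones, and that of immediate early genes -0.35, -0.29 and -0.52.

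Several list genes passed once a library or the tool was changed. Without day 7 replicate 5, 30 of 804 tested list genes (3.73%) were called against 6.89% of all genes, 13 higher and 17 lower. DESeq2 called 22 of 801 (2.75%) against 3.9%, 8 higher and 14 lower. Crtam, an adhesion receptor gene of activated NK and CD8 T cells, was called in 7 of the 20 alternatives, the most of any list gene. It stood at 6.58, 7.12, 3.95, 5.83 and 7.16 CPM at day 4 and at 15.7, 12.1, 7.78, 7.71 and 7.65 CPM at day 7. All day 7 tumours lay above all day 4 tumours, most of the difference being in replicates 1 and 2 (1.66-fold, adjusted p = 0.0627). Bub1b and Snai1, a factor of mesenchymal transition, were called in 6 alternatives each, and Acly, Cdh2, Klf6, Hspe1, Timp1 and Bst2 in 5 each. Ctla4 and Lag3, inhibitory receptor genes of T cells, had log2 changes of -1.22 and -0.69 (adjusted p = 0.106 and 0.101) and fell without day 7 replicate 5 (by 1.64 and 0.84; adjusted p = 0.0160 and 0.0254).

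Genes with short and long transcripts differed between the days. Each gene was given the length of its longest annotated transcript (GENCODE vM21), known for 15278 of the tested genes, and the genes were divided into equal terciles. In the shortest tercile 148 genes were higher and 774 lower at an unadjusted p under 0.05, with a median log2 change of -0.08. In the longest tercile 899 were higher and 191 lower, with a median of 0.07. Across genes, Spearman's coefficient of the log2 change with length was 0.28, a description only, since genes of a library are not independent. Day 4 replicate 5 stood furthest out, with its short genes at 0.22 above their 10-tumour mean and its long genes at -0.22. Without it the coefficient was 0.11, and the counts were 376 higher and 664 lower for short genes and 738 higher and 426 lower for long ones. RNA quality values are not given in the sources used here, and the part of transcript length in the day 7 to day 4 differences was not tested.

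**Figure D2:**
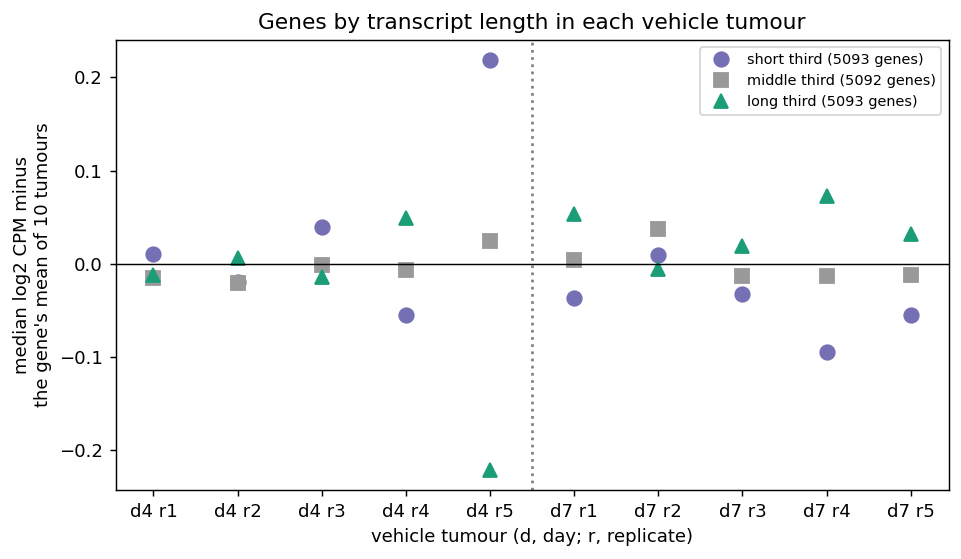
Median over genes of log2 CPM minus the gene's mean of 10 tumours (y axis) for the short, middle and long terciles of transcript length in each vehicle tumour (x axis). Day 4 replicate 5 has short genes at 0.22 and long genes at -0.22; the other 9 tumours lie between -0.09 and 0.07.

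Differences between tumours were larger than the difference between days. Over all tested genes the day means held a median of 10.5% of a gene's variance among the 10 tumours. With no day effect the mean share is 11.1% (1 of 9 degrees of freedom). The median share is then lower than that mean, so 11.1% is no yardstick for the 10.5%. The median SD of log2 CPM about the day mean was 0.23, and 866 genes (5.59%) had an SD over 1. Pairs of tumours correlated at r = 0.955 to 0.993 across genes, and 7 of the 10 tumours had their closest partner in their own day. The leading 3 principal components of the 1000 most variable genes held 48.2%, 24.8% and 7.06% of the variance, and the days overlapped on the first and second.

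**Figure D3:**
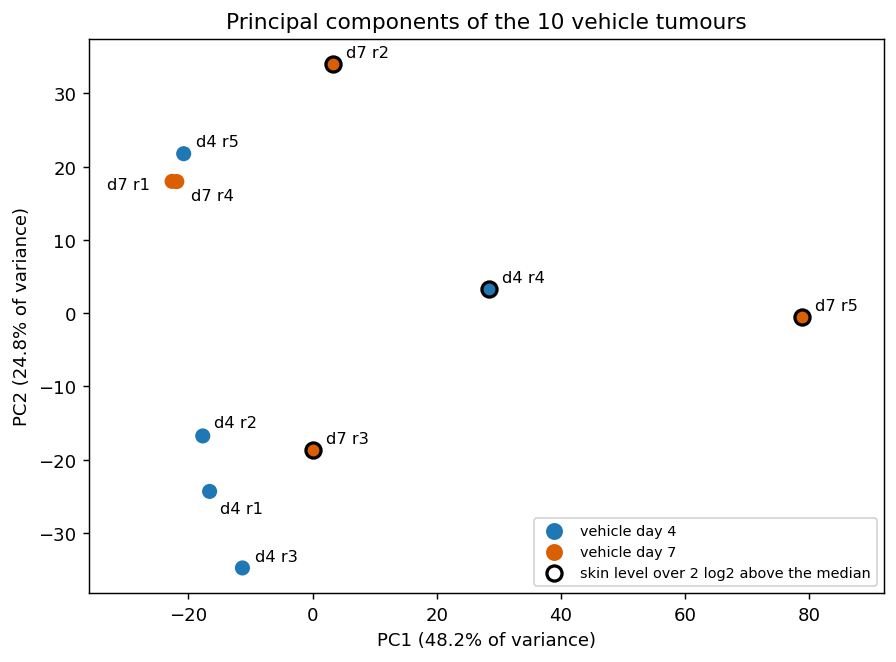
Principal component scores of the 10 vehicle tumours (x axis, first component, 48.2% of variance; y axis, second, 24.8%), coloured by day, with a black ring on the 4 tumours with raised skin genes. Day 7 replicate 5 lies alone at the right; on the second component day 4 replicate 5 sits with day 7 replicates 1, 2 and 4, and day 7 replicate 3 with day 4 replicates 1 to 3.

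The first component followed epidermis. Its highest loadings were the basal and suprabasal keratin genes Krt6b, Krt6a, Krt5, Krt1 and Krt14 and the cornified envelope gene Lor. Krt5 (gene 110308; chromosome 15, 101707069 to 101712905) stood at 0.0198, 0, 0, 30.4 and 0.0174 CPM in day 4 replicates 1 to 5 and at 0.0596, 9.44, 5.82, 0 and 161 CPM at day 7. The same 4 tumours were high for Krt14, at 28.2, 14.99, 15.3 and 341 CPM against 0.0325 to 0.314 CPM in the other 6. Desmosome genes followed, Dsp reaching 97.1 CPM and Perp 50.2 CPM in day 7 replicate 5. The day intervals of these genes were wide, -2.45 to 7.498 for Krt5.

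The second component separated tumours rich in granule proteases from tumours rich in some resident macrophage genes and the muscle gene Myh4, across both days. Granzymes are serine proteases that NK and cytotoxic T cells release into target cells; Gzmb is the main apoptosis-inducing member of the cluster on chromosome 14, and Gzmc to Gzmg are rodent members beside it. Gzmd (gene 14941; chromosome 14, 56129556 to 56132603) stood at 1.98, 2.30, 0.991, 8.09 and 35.5 CPM in day 4 replicates 1 to 5 and at 31.4, 43.6, 6.94, 15.3 and 5.05 CPM at day 7. Day 4 replicate 5 and day 7 replicates 1 and 2 were the 3 highest, and day 4 replicates 1 to 3 the lowest. Gzmg spanned 0.165 to 38.3 CPM, Gzmf 0.792 to 31.9, Gzme 0.477 to 16.8 and Gzmc 11.7 to 102. Gzmb stood at 8.01, 9.04, 8.90, 16.2 and 25.8 CPM at day 4 and at 32.0, 39.7, 9.70, 20.3 and 9.01 CPM at day 7, and Prf1, the pore-forming perforin gene, had the same 3 highest tumours, at 14.6 to 21.2 CPM. The day intervals of all these genes crossed 0, -0.72 to 2.85 for Gzmd.

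The 250 bases before the start of the granzyme genes that moved together most widely are shown because the members are near copies (RefSeq, GRCm38.p6, minus strand, each 5′ to 3′ and ending at the base before the start used in the promoter table). For Gzmd that start lies inside the gene's span, so the last 10 bases of its window fall within it. Capitals mark the longest stretch, 36 bases, that all 4 share without a difference; it begins 49, 50, 70 and 65 bases before the start of Gzmd, Gzme, Gzmf and Gzmg.

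Gzmd: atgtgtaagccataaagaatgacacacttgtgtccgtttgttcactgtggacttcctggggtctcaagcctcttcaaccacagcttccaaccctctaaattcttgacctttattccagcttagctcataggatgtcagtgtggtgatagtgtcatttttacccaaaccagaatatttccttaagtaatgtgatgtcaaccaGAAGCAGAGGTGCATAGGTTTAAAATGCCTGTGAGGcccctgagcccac

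Gzme: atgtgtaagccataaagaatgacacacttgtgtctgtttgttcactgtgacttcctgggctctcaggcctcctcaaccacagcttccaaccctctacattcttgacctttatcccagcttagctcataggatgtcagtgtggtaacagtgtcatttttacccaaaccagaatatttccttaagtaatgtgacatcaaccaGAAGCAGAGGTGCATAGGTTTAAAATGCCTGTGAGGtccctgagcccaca

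Gzmf: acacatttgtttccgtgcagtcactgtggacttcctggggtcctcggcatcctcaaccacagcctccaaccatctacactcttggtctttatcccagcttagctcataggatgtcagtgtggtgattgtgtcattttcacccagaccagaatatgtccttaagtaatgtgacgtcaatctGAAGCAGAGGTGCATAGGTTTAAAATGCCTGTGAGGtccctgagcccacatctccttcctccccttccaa

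Gzmg: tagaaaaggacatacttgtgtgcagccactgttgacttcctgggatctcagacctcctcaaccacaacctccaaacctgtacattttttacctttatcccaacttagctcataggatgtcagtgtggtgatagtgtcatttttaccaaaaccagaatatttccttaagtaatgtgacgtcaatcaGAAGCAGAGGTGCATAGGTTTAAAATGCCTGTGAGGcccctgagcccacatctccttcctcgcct

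The stretch was chosen because these 4 genes share it. No other of 32851 promoter windows of 300 bases held it, so it occurred in 0.0122%. Aligned with gaps, the Gzmd and Gzme windows were 94.8% identical, Gzmf and Gzmg 83.2%, and Gzmd and Gzmf 75.0%. Gzmd and Gzmb were 44.6% identical. The Gzmc window, which lacks the stretch, was 81.3%, 81.8%, 71.5% and 74.5% identical to those of Gzmd, Gzme, Gzmf and Gzmg. Similarity was thus not limited to the 4. Positions were chromosome 14, 56132594 to 56132843 for Gzmd, 56120626 to 56120875 for Gzme, 56211408 to 56211657 for Gzmf and 56159580 to 56159829 for Gzmg. Matches on either strand to TGACTCA (AP-1), the interferon-stimulated response element, CCAAT (NF-Y), TTTGAA (cell cycle homology region) and ACGTG (hypoxia response element) numbered 0 in the 4 windows; 5.2%, 3.44%, 37.4%, 17.9% and 19.6% of the 300-base windows hold them. Reads from such similar genes may be divided or dropped in counting, so the level of each granzyme alone is uncertain.

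The same 3 tumours were the 3 highest for 7 of 14 tested NK-cell genes (Ncr1, Klrb1c, Klra7, Klrc1, Klrd1, Il2rb and Gzma), 11 of 17 cytotoxic effectors and 3 of 22 T-cell genes (Cd247, Zap70 and Tcf7). These tumours were picked by Gzmd, which is itself among the 11, as are Gzmc, Gzme, Gzmf and Gzmg of its cluster. Gzma counts in both lists. The share of all tested genes with the same 3 highest tumours was not counted, so these counts have no background beside them. Among NK receptor genes with another order, Klra1 was at 0 CPM in day 4 replicate 5 and Klrk1 was highest in day 4 replicate 3, at 4.87 CPM. Klrb1c, which encodes NK1.1, stood at 1.29, 1.18 and 2.08 CPM in day 4 replicate 5 and day 7 replicates 1 and 2 and at 0.119 to 0.649 CPM in the other 7. Ncr1, the NKp46 gene, stood at 0.976, 0.858 and 1.64 CPM in those 3 tumours and at 0.386 to 0.812 CPM in the others. Cd3g lay between 0.435 and 1.66 CPM and was highest in day 4 replicate 1, a granzyme-low tumour. Eomes, a T-box factor gene of NK and memory T cells, did not follow Ncr1 and Klrb1c and stood above both. It was nearly level, at 12.97 to 16.4 CPM in all 10, and which cells it came from was not tested. The cytotoxic effector level, the mean of 17 genes, ran from 0.72 to 2.87 log2 CPM and the NK cell level from -0.52 to 1.03, both lists overlapping between days.

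At the other end of the second component, some genes of resident macrophages had the same 4 highest tumours. Cd209f, a lectin gene of tissue macrophages, stood at 7.10, 9.62, 13.1, 1.93 and 0.941 CPM in day 4 replicates 1 to 5 and at 0.393, 0.985, 21.2, 1.27 and 2.26 CPM at day 7. Day 7 replicate 3 and day 4 replicates 1 to 3 were the 4 highest, as for 8 of 17 tested genes of alternatively activated macrophages and 1 of 19 of macrophages. The 4 were picked by Cd209f, and the share of all tested genes with the same 4 highest tumours was not counted. Lyve1, another gene of resident macrophages, differed, its second highest value being 29.96 CPM in day 7 replicate 5. The haemoglobin scavenger receptor gene Cd163 ranged from 1.49 to 21.2 CPM, the folate receptor gene Folr2 from 2.88 to 23.5, Cd5l from 0.0150 to 19.1 and the scavenger receptor gene Marco from 0.0474 to 10.7 CPM, each highest in day 7 replicate 3. The muscle creatine kinase gene Ckm ranged from 3.94 to 33.4 CPM and followed less closely. It stood at 12.3 CPM in day 4 replicate 5, a granzyme-rich tumour, and at 10.7 CPM in day 4 replicate 2. The macrophage list was highest in day 7 replicate 3 and day 4 replicate 3 (6.04 and 5.95), with day 7 replicate 2, a granzyme-rich tumour, next (5.94). C1qa and Csf1r were highest in that last tumour, at 230 and 99.1 CPM.

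**Figure D4:**
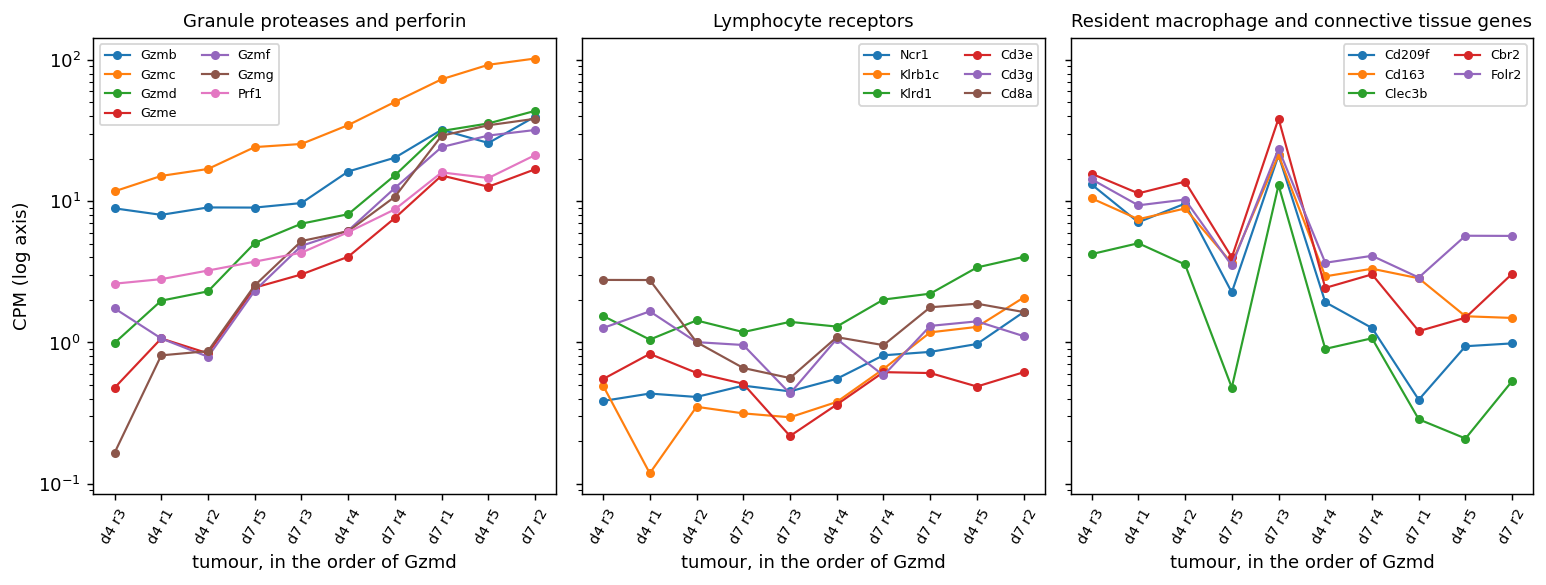
CPM on a log axis (y) of granule, lymphocyte receptor and resident macrophage or connective tissue genes in the 10 vehicle tumours, ordered along x by Gzmd and joined by lines for each gene. Granzymes and Prf1 climb across the order, Klrb1c and Klrd1 are highest at its right end, and Cd209f, Cd163 and Clec3b are high at the left and peak in day 7 replicate 3.

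The third component set day 7 replicate 1 (score 22.9) against day 4 replicate 5 (-19.0) and day 7 replicate 3 (-16.1). Day 7 replicate 2, at -1.88, was not at either end. Spib, an ETS factor gene of B cells and plasmacytoid dendritic cells (gene 272382; chromosome 7, 44525995 to 44532087), stood at 29.99, 38.7, 3.41, 9.40 and 18.0 CPM at day 4 and at 180, 150, 36.5, 32.1 and 8.88 CPM at day 7. Day 7 replicates 1 and 2 were far above the rest, and Sox10, a neural crest factor gene, had its 2 highest values in the same tumours, 11.2 and 6.42 CPM against at most 3.62 CPM. Il12a, which encodes the p35 subunit of interleukin-12 (gene 16159; chromosome 3, 68690644 to 68698550), stood at 0.0632 to 0.198 CPM in the day 4 tumours and at 4.16, 2.16, 0.171, 0.714 and 0.165 CPM at day 7. The difference again came mainly from day 7 replicates 1 and 2 (log2 change 3.61, adjusted p = 0.0627), and Il12b, the gene of the p40 subunit, had no such pattern, at 0.0812 to 0.881 CPM. Wfdc2 had the lowest loading on the third component and was highest in day 4 replicate 5, at 10.7 CPM. Msln, the mesothelin gene, was instead among the high loadings of the second component. It was highest in day 7 replicate 2 and day 4 replicate 5, at 26.0 and 25.4 CPM, and lowest in day 4 replicate 3, at 1.36 CPM.

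**Figure D5:**
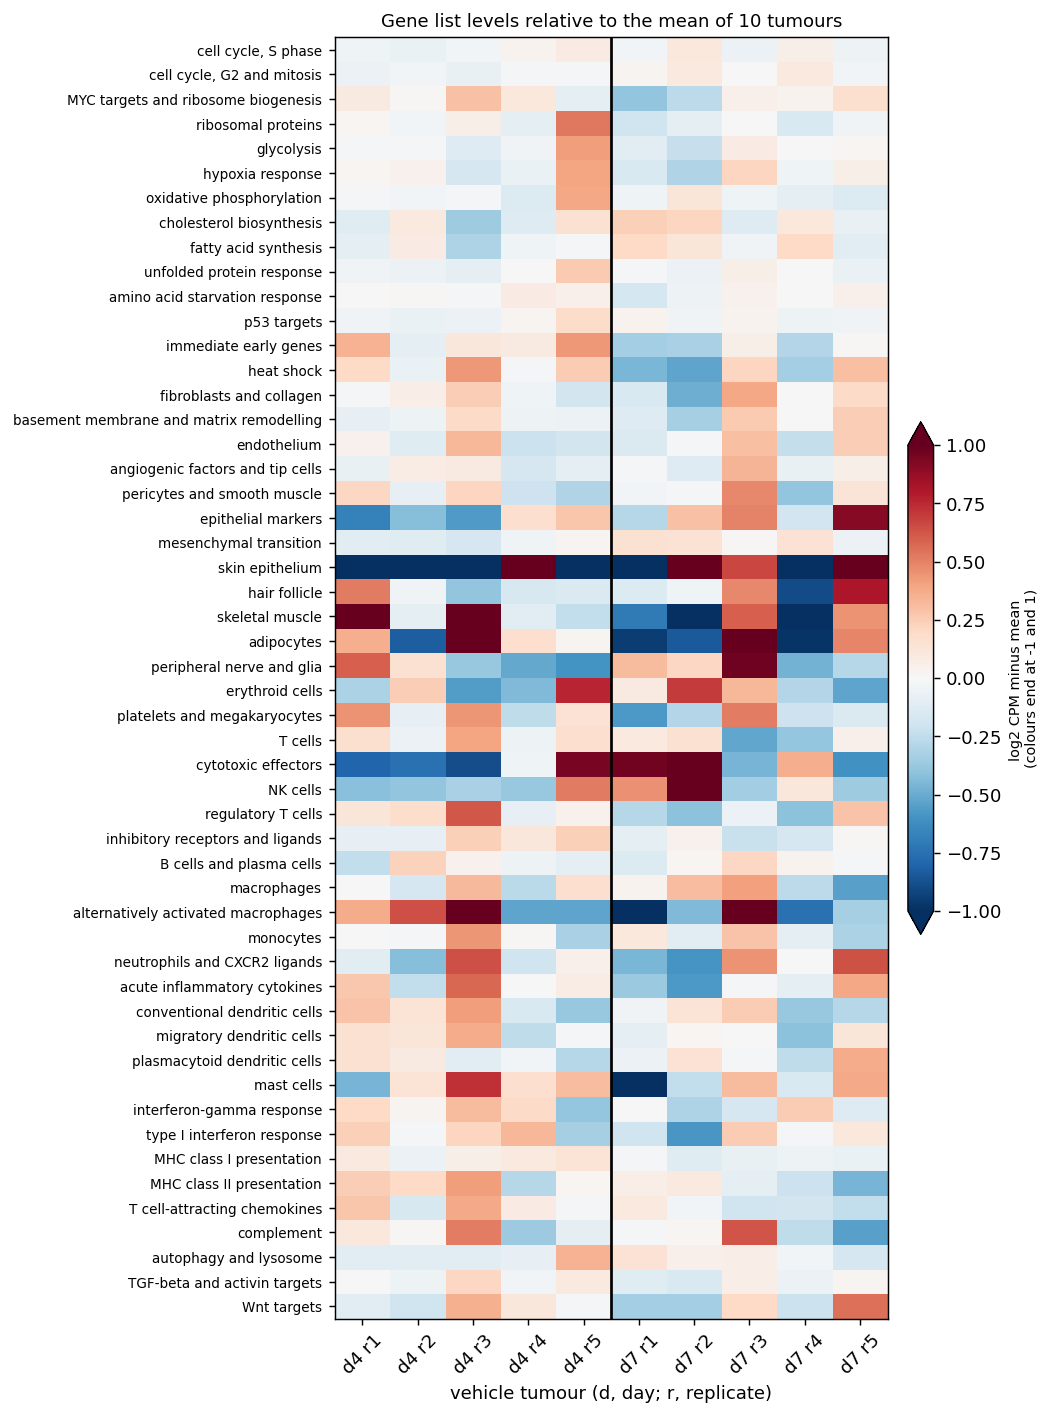
Level of each gene list (rows; mean log2 CPM of tested members) minus its mean over the 10 vehicle tumours (columns; day 4 left of the black line, day 7 right), in colours that end at -1 and 1. Cytotoxic effectors and NK cells are high in day 4 replicate 5 and day 7 replicates 1 and 2, skin epithelium in 4 tumours, and no row separates the days.

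Day 4 replicate 5 departed from its group in metabolism. Its Ldha, the lactate dehydrogenase gene, stood at 3099 CPM against 1754 to 2136 CPM in the other 9, and its Mki67 at 239 CPM against 413 to 538 CPM, while Top2a, at 719 CPM against 789 to 956 CPM, differed less. Its cell cycle lists were not low. Its S phase level, 7.30, was the highest of day 4 (others 7.16 to 7.25), and its G2 and mitosis level, 7.26, lay among theirs (7.20 to 7.27). The transferrin receptor gene Tfrc was also highest there, at 864 CPM, followed by day 7 replicate 2 at 792 CPM. These values stood beside its ribosomal protein share and its short-transcript excess, and their part in one another was not tested.

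Vehicle tumours varied more than treated ones at the median gene. The median log2 SD within a group was 0.23 for vehicle day 4 and 0.20 for vehicle day 7, and 0.15 to 0.16 in the 4 treated groups; these are descriptions with no test. Without replicate 5 the vehicle day 4 value was 0.13, below all treated groups, and without replicate 5 the vehicle day 7 value was 0.19. The common biological coefficient of variation did not follow that order, at 23.03% and 32.9% for vehicle day 4 and 7 against 24.7% to 29.3% in the treated groups.

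Gene pairs were read across the 10 vehicle tumours after the day means were removed, 10 pairs in all, with two-sided exact permutation tests within days (14400 pairings, smallest p 6.94e-05). None passed adjustment over the 10 pairs. Cd8a and the T cell-attracting chemokine gene Cxcl9 had r = 0.70 (p = 0.0397, adjusted 0.157, exact permutation) and a Spearman coefficient of 0.73 (p = 0.0267, adjusted 0.134), and r = 0.49 without the 2 tumours furthest in Cd8a. Ifng and Cxcl9 had r = 0.67 (p = 0.0361, adjusted 0.157, exact permutation) and a Spearman coefficient of 0.62 (p = 0.0654, adjusted 0.164), and r = 0.56 without 2. Col1a1 and the endothelial gene Pecam1 had r = 0.66 (p = 0.0471, adjusted 0.157, exact permutation) and a Spearman coefficient of 0.77 (p = 0.0183, adjusted 0.134), and r = 0.80 without 2. Mki67 and Slc2a1 had r = -0.56 (p = 0.105, adjusted 0.210, exact permutation) and a Spearman coefficient of -0.25 (p = 0.472, adjusted 0.527), which rested on 2 tumours, day 4 replicate 5 among them: without them r was -0.01.

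The day change of vehicle tumours was set against that of drug-treated tumours by interaction contrasts. The day change differed in 772 genes (4.99%) for mXTX301, 302 more positive (1.95%) and 470 more negative (3.04%) than in vehicle, and in 798 genes (5.15%) for the unmasked control, 457 (2.95%) and 341 (2.2%); both contrasts use the same vehicle tumours. Appbp2, which encodes an amyloid precursor protein-binding protein, stood at 51.1 ± 2.34 and 59.8 ± 3.00 CPM in vehicle at day 4 and day 7 and at 55.6 ± 2.54 and 45.1 ± 2.86 CPM under mXTX301 (SD, n = 5). The difference of log2 changes was -0.53 (SE 0.079, edgeR adjusted p = 0.00487). N4bp2 and Casp8ap2, a caspase-8-associated protein gene, had differences of -1.03 and -0.69 (adjusted p = 0.0103 each), with vehicle changes of 0.45 and 0.33, and Prss46, a serine protease gene, and Majin, a meiotic telomere gene, had 2.84 and 2.52 at under 3 CPM.

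Against the unmasked control, Slx1b, lower at day 7 in vehicle, had a difference of 0.54 (SE 0.087, adjusted p = 0.0146): 17.7 ± 0.882 and 14.2 ± 1.12 CPM in vehicle and 12.1 ± 0.673 and 14.1 ± 0.837 CPM in the control (SD, n = 5). Adcy2, an adenylyl cyclase gene, had 3.42, Zfp653 0.62, Dagla, which makes the endocannabinoid 2-arachidonoylglycerol, 0.75 and Ap5z1, an adaptor subunit gene, 0.77 (adjusted p = 0.0146 each). Dagla was nearly level in vehicle, at 7.69 ± 1.24 and 7.52 ± 0.317 CPM. Without single vehicle libraries the counts ran from 207 (without day 7 replicate 4) to 1225 (without day 7 replicate 3) for mXTX301 and from 138 (without day 7 replicate 4) to 3025 (without day 4 replicate 5) for the control. The 10 genes named kept their call and direction in each of the 140 alternative values. They were chosen for the smallest p in the same data, so this does not extend to the other called genes.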

How the data were processed

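The deposited table of raw counts gave whole-number counts for 24557 gene entries in 30 libraries; 5 entries repeated a symbol and were dropped. The submitters' processing notes name STAR 2.7.10a, HTSeq 0.11.1, edgeR 3.34.0, cutadapt, R 4.1.0, FastQC 0.11.9 and mm10; their roles, settings and strand are not given in the sources used here. The deposited log2 values (14877 genes) were recovered from the counts within 5e-05 with TMM factors and a prior count of 2. With R 4.3.3 and edgeR 4.0.16, genes were kept by filterByExpr, a mean for each of the 6 groups was estimated from the 30 libraries together, and contrasts were tested by the quasi-likelihood F test with Benjamini-Hochberg adjustment, called under 0.05. CPM are counts per 1000000 of TMM-scaled library sizes; levels use log2 CPM with a prior count of 2. DESeq2 1.42.0 and limma 3.58.1 were alternatives. The scripts were tested on simulated data.

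Gene lists, panel, pairs and naming rules were chosen with earlier results of these data known. Named genes were the panel of 36, called genes, the list member with the smallest p, the 15 most variable genes of at least 5 CPM and 5 genes per interaction; Stat3, Pvt1, H2-K2, the other granzymes, list genes outside this rule and the genes of the components were chosen after their values were seen. Each group held 5 mice, so the p-values measure spread between mice. For the edgeR p-values that spread was estimated over all 6 groups, the drug-treated ones included. It is not the spread of the 10 vehicle mice alone, with which edgeR called 0 genes. Gene names and positions come from RefSeq (GRCm38.p6), matched for 15176 of the tested genes.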

Additional observations from a re-analysis of the deposited data

Results flagged for a closer look

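In groups of 5 tumours, 216 checks sought a value far from the other 4 among panel, called and variable genes and list levels. Of these checks, 22 (10.2%) stood out. At day 4, replicate 4 held 11 of them: Krt14 at 28.2 CPM, Epcam at 0.553, Krt5 at 30.4, Krt6b at 7.29, Krt6a at 6.65, Krt1 at 14.7, Calm4 at 3.40, Perp at 5.14, Dsp at 8.15 and Krt10 at 28.2 CPM, and the skin epithelium level at 2.17. Replicate 5 of day 4 held 7: Mki67 at 239 CPM, Ldha at 3099 CPM, and the levels of ribosomal proteins at 10.3, glycolysis at 8.68, oxidative phosphorylation at 7.60, NK cells at 0.42 and autophagy and lysosome at 6.66. The basement membrane and matrix remodelling level stood out in day 4 replicate 3, at 6.69. At day 7, Cd3e stood out in replicate 3, at 0.218 CPM, with the level of alternatively activated macrophages, at 4.00, and S100a8 in replicate 5, at 5.25 CPM. Chance gives about 5% only for independent checks of unselected values. The variable genes were picked for their spread in these tumours, and many were skin genes. The 10.2% is therefore not set against that rate.

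The day change differed between drug and vehicle by the interaction test for 10 named genes. For mXTX301 minus vehicle the differences of log2 changes were -0.53 for Appbp2, 2.84 for Prss46, -1.03 for N4bp2, -0.69 for Casp8ap2 and 2.52 for Majin. For the unmasked control minus vehicle they were 0.54 for Slx1b, 3.42 for Adcy2, 0.62 for Zfp653, 0.75 for Dagla and 0.77 for Ap5z1.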

How the results depend on the processing

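The counts of genes higher and lower at day 7, 3 and 3 as reported, moved under each setting run. They were 0 and 0 with the 10 vehicle libraries alone (1580 at an unadjusted p under 0.05), 0 and 0 with RLE factors (2938 unadjusted), 0 and 0 without a low-count filter (3143 unadjusted), 308 and 296 with DESeq2, 95 and 81 with genes kept at a mean from 1 CPM up, 20 and 62 with limma on the deposited log2 values, and 5 and 9 with the skin level as covariate. Without the 4 skin-rich tumours they were 455 and 206. Leaving out each vehicle library gave 0 to 536 higher and 0 to 539 lower. Chosen after seeing the data, an adjusted p under 0.10 gave 298 and 268, and leaving out the skin-richest tumour of each day 405 and 451. The cause was not tested. Replicate numbers did not pair tumours: same-numbered pairs had correlations of 0.219, -0.110, 0.480, -0.356 and -0.291, and 2 of 10 tumours correlated best with their own number. With a replicate block 54 were higher and 32 lower.

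List genes called, 0 as reported, were 22 with DESeq2, 3 with genes kept from 1 CPM up, 20 without the skin-rich tumours, 28 without the skin-richest of each day and 0 to 30 without single libraries. Genes whose day change differed numbered 1474 for mXTX301 and 1722 for the unmasked control with DESeq2, and 473 for the control without a filter; with a replicate block they were 866 and 698. Without single libraries they were 207 to 1225 for mXTX301 and 138 to 3025 for the control. For mXTX301 the counts moved over 1.5 times without day 4 replicates 1 and 3 (379 and 513) and day 7 replicates 1 and 5 (496 and 1163) as well. For the control they did so without day 4 replicates 1, 2 and 3 (248, 395 and 380) and day 7 replicates 2, 3 and 5 (386, 1248 and 1640) as well.

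Of 2125 values of named genes under alternatives, 48 lost and 95 gained a call and 0 reversed a call. Of 52 list level differences, 45 moved by less than the spread between tumours with the median of the members, and 9 changed sign. List levels without day 4 replicate 5 or the skin-rich tumours were also chosen after seeing the data. The median log2 SD pooled over both days ran from 0.18 to 0.24 without single libraries. Counts were low for lymphocyte genes such as Cd3e and Ifng, which lay under 1 CPM.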
